A study of Mus musculus with 6 samples.

Results

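Potassium channel genes were measured in the prefrontal cortex (PFC) of WT mice, P301S Tau mice and P301S Tau mice given UNC0642. The genes were chosen by symbol: Kcn, then letters and a number, without Kcnj8 and Kcnj10, and with at least 10 counts in at least 2 of the 6 libraries. Of 90 such symbols 76 reached this level, among 54429 genes listed, and 75 of the 76 passed the filter of the test, all but Kcnj5. Potassium channels let K+ leave the neuron and so set its resting potential, the shape of its spikes and its firing rate. Voltage-gated (Kv) channels open with depolarization, calcium- and sodium-activated channels follow ion entry, inward rectifiers (Kir) and tandem-pore (K2P) channels carry current near rest, and auxiliary subunits tune trafficking and gating. Most of the pore genes are typical of cortical neurons, and a few, such as Kcnk13, are known from glia as well.

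Total RNA depleted of ribosomal RNA was sequenced from 2 mice per group, all 6 months old, which gave 17005664 to 28972176 counts per library. WT mice were (C57BL/6 x C3H) and received vehicle (saline with 0.18% DMSO). Tau mice were PS19(P301S), which carry human tau with the P301S change under the mouse prion promoter, and received the same vehicle. The third group was PS19(P301S) given UNC0642, an inhibitor of the histone H3K9 methyltransferases EHMT1 and EHMT2, at 1 mg/kg i.p. once a day for 3 days, with tissue taken 24 h later. All groups therefore received DMSO in saline, and no WT mice given UNC0642 were analysed here. Each library is a lysate of the whole tissue, so that fewer cells of a type and less RNA per cell cannot be told apart.

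Values are CPM (counts scaled to library size with TMM factors), given for replicate 1 and then replicate 2 of each group. Several features of the libraries touch the results. Prnp read 1652 and 873 CPM in the libraries labelled WT, 1552 and 1470.3 in Tau, and 1548 and 1694 after UNC0642, so that the library labelled WT replicate 1 lay among the Tau libraries for the gene whose promoter drives the transgene, and it is called by its label throughout. Xist read 0.197 and 317 CPM in the libraries labelled WT, 191 and 235 in Tau, and 0.118 and 0.176 after UNC0642, and each of 4 Y-linked genes had the opposite pattern, so that the sex of the mice cannot be told apart from UNC0642 against Tau. Summed oligodendrocyte markers were 3175 and 1579.5 CPM in WT, 2199 and 5943 in Tau and 2305 and 2455 after UNC0642, and striatal neuron markers 192 and 178 CPM in WT, 216 and 400.1 in Tau and 188 and 194 after UNC0642, both highest in Tau replicate 2. Of the 10 striatal markers 9 were called up in Tau and 9 down after UNC0642, and their part in the changes of the channel genes was not tested. All 10 excitatory cortical neuron markers passed the filter, and their sum was 2607 and 3170.4 CPM in WT, 3231 and 2753 in Tau and 2788 and 2654 after UNC0642.

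Per kilobase of exon, the most abundant potassium channel genes were a Kv auxiliary subunit, an inward rectifier and Kv pore genes. Kcnab2 (Kv beta, a cytoplasmic subunit of Kv1 channels) stood at 64.5 CPM per kb as the mean of all 6 libraries, and Kcnj4 (Kir) at 56.7. Kcnf1, which forms no channel alone but joins Kv2 subunits, stood at 40.0 and Kcna2 (axonal Kv1) at 37.3. The calcium-binding KChIP subunit Kcnip3, at 33.9, and the Kv4 gene Kcnd2, whose channels KChIPs bind, at 32.1, were close to each other on this scale. Levels within a subfamily spanned a wide range: Kv1 ran from 37.3 for Kcna2 to 1.003 for Kcna5, K2P from 30.9 for Kcnk1 to 0.190 for Kcnk5, and Kir down to 0.0680 for Kcnj5. SK ran from 5.42 for Kcnn1 to 1.98 for Kcnn3.

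**Figure D1:**
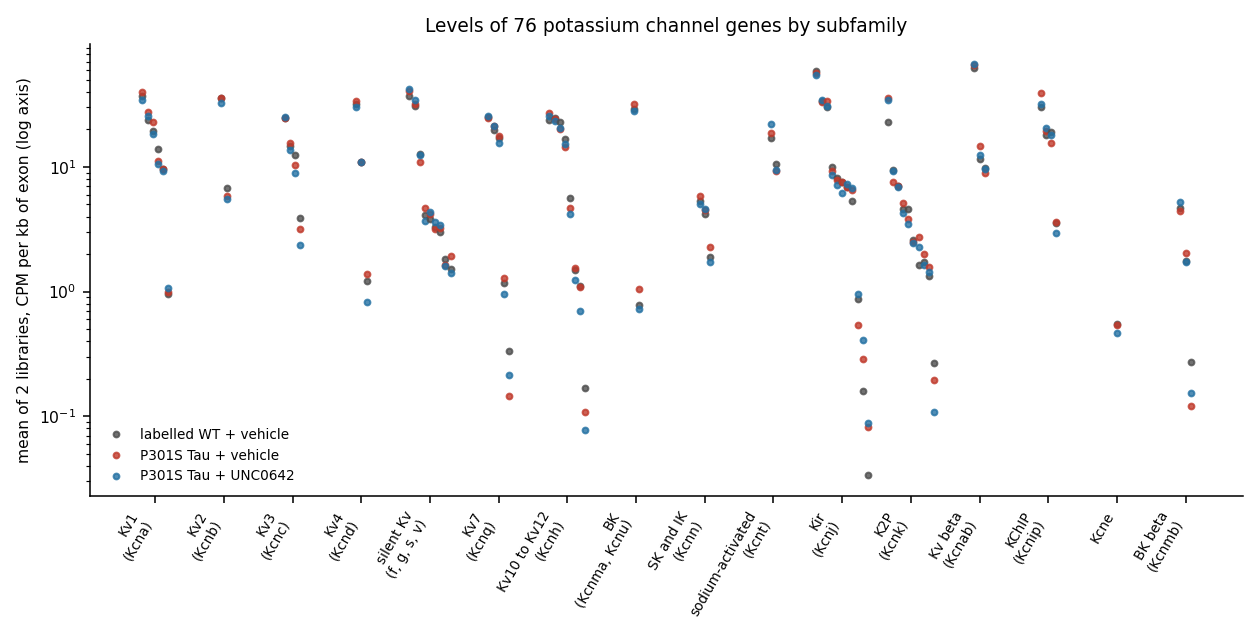
Level of each of the 76 genes on a log axis in CPM per kilobase of exon, ordered within each subfamily from the highest to the lowest, with 1 point for the mean of the 2 libraries of each group. The 3 groups lie almost on top of each other for most genes, and Kcnk1 is the first K2P gene, with the labelled WT point below the other 2.

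Among the genes with the highest CPM of their subfamily, Kcnt2, Kcnk9 and Kcnip3 were called in at least 1 comparison, and those that follow were not. Kcna2 read 419 and 469.9 CPM in the libraries labelled WT, 513 and 433 in Tau, and 436 and 391 after UNC0642. Kcnc2, a Kv3 gene of fast-spiking cells, read 165 and 190.2 CPM (WT), 182 and 169 CPM (Tau) and 179.6 and 179 CPM (UNC0642). For Kcna2 Tau replicate 1 was the highest library and the groups overlapped. Kcnd2 (dendritic Kv4) read 164 and 165 CPM (WT), 179 and 172 CPM (Tau) and 162 and 149 CPM (UNC0642), and Kcnf1 183 and 173 CPM (WT), 210.1 and 177 CPM (Tau) and 192 and 215 CPM (UNC0642). Kcnh7, of the ERG group, read 332 and 391.5 CPM (WT), 419.9 and 410.4 CPM (Tau) and 430.4 and 349.7 CPM (UNC0642). Kcnd2 was lower in both UNC0642 libraries than in both Tau libraries, at a fold under 1.2 (log2 fold change -0.17, edgeR adjusted p = 0.549).

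Among the remaining leading genes, Kcnma1, the pore of the BK channel, read 469 and 520.1 CPM (WT), 564 and 515 CPM (Tau) and 495 and 462 CPM (UNC0642). Its auxiliary Kcnmb4, the neuronal BK beta subunit, read 14.2 and 16.8 CPM (WT), 14.2 and 15.5 CPM (Tau) and 16.9 and 18.0 CPM (UNC0642). Kcnn2 (SK, opened by calcium through calmodulin) read 32.6 and 30.1 CPM (WT), 33.4 and 33.8 CPM (Tau) and 29.9 and 38.4 CPM (UNC0642). For these 3 genes no comparison was called. Kcnj3, a GIRK subunit opened by G proteins, read 149.7 and 167 CPM (WT), 185 and 168 CPM (Tau) and 167 and 154 CPM (UNC0642), and Kcnab2 340.4 and 348 CPM (WT), 370.3 and 359 CPM (Tau) and 369.6 and 372 CPM (UNC0642). Kcne4, the only member of the Kcne group at this level, read 0.788 and 2.15 CPM (WT), 0.930 and 1.95 CPM (Tau) and 1.42 and 1.06 CPM (UNC0642), on 20 to 55 counts per library. Kcns2, a silent Kv subunit named for its small p, read 68.3 and 72.9 CPM (WT), 64.2 and 57.8 CPM (Tau) and 69.7 and 70.7 CPM (UNC0642), lowest in the Tau pair without a fold of 1.2 in either direction (log2 fold change -0.21, edgeR adjusted p = 0.390 against WT, and log2 fold change 0.20, edgeR adjusted p = 0.561 after UNC0642).

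Between P301S Tau and WT, most potassium channel genes did not pass the test and a few moved in each direction. The K2P gene Kcnk1 rose most firmly, with the KChIP gene Kcnip3, the Kv beta gene Kcnab1, the K2P gene Kcnk13 and the inward rectifier Kcnj12. The K2P gene Kcnk9 and the Kv1 gene Kcna4 fell, with the KChIP gene Kcnip2, the ERG gene Kcnh2 and Kcnq1. Members were thus called 5 up and 5 down of 75, or 13.3%, beside 9.81% of all 20409 genes tested (3.72% up and 6.1% down), at an unadjusted edgeR p under 0.05 and a fold of at least 1.2. With adjustment over all genes Kcnk1 alone passed in edgeR, beside 0.157% of all genes, and Kcnk1 and Kcnip3 in DESeq2. The median log2 fold change was 0.031 over the members, beside -1.07e-04 over all genes. In 31 members the 2 Tau and 2 WT libraries did not overlap, 41.3% beside 43.2% of all genes, with Tau higher in 18 (24%, beside 21.9%) and lower in 13 (17.3%, beside 21.4%). The pore genes of the Kv class numbered 37, of which 0 were called up and 3 down. An unadjusted edgeR p under 0.05 with a smaller fold was found in both directions, for Kcna1 and Kcna6 upward and Kcnc1 and Kcns2 downward. Over all members the calls were 4 up and 9 down without Tau replicate 1, 4 up and 2 down without Tau replicate 2, 5 up and 6 down without WT replicate 1 and 7 up and 3 down without WT replicate 2. The median turned to -0.018 without Tau replicate 1, to -0.0076 without WT replicate 1 and to -0.0073 in a fit with a term for high or low Xist (the Xist term). Only the libraries labelled WT differed from each other in high or low Xist, so the term rests on that pair. In Tau against WT it is therefore nearly the same fit as leaving out WT replicate 1, and is no separate check. In treated against untreated Tau it shifts the values by the difference between the WT libraries.

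Between UNC0642-treated and vehicle-treated Tau mice, 7 members were called down and 1 up, a balance that turned to 8 up and 5 down with the Xist term. Kcnip3, the X-linked Kv4 gene Kcnd1, the Kv1 gene Kcna6, the ERG gene Kcnh6, the SK gene Kcnn3 and the GIRK gene Kcnj6 were among those that fell, and Kcnk9 rose. The calls without that term made up 10.7% of the 75 members tested, beside 7.69% of all genes (3.73% up and 3.95% down). None had an edgeR adjusted p under 0.05 (12 had an unadjusted p under 0.05, or 16% beside 8.86% of all genes, and the DESeq2 Wald test gave 9 and, after adjustment, 0), beside 0.0196% of all genes. Both UNC0642 libraries were below both Tau libraries for 28 members (37.3%, beside 20.9% of all genes) and above them for 10 (13.3%, beside 20.4%). The median log2 fold change was -0.076, beside -0.0023 over all genes, and was 0.0043 with the Xist term. Without Tau replicate 2 the calls were 0 up and 10 down, without Tau replicate 1 they were 2 up and 2 down, and without UNC0642 replicate 1 they were 0 up and 6 down. This comparison and the first share the Tau libraries, so that a high or low Tau value enters both with opposite sign.

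UNC0642-treated Tau mice were also compared with WT mice. Kcnk1, Kcnt2 (sodium-activated) and Kcnj12 were higher, and the genes that were lower included the Kv genes Kcnc1, Kcna4, Kcnb2, Kcnd1, Kcnh2 and Kcnh6 and the GIRK gene Kcnj6. That is 3 up and 8 down of 75, or 14.7%, beside 9.47% of all genes (3.77% up and 5.69% down). The Kv class made up 7 of the 8 genes called down, of 37 Kv genes tested, with a median log2 fold change of -0.11. The adjusted edgeR p was under 0.05 for Kcnk1 alone, beside 0.216% of all genes, and the DESeq2 one for Kcnk1, Kcnc1 and Kcnt2 among others. Without WT replicate 1 the calls were 4 up and 6 down, without WT replicate 2 7 up and 9 down, and with the Xist term 7 up and 9 down. The median over all members was -0.075, beside -0.012 over all genes, and turned to 0.028 without WT replicate 2 and to 0.027 with the Xist term. In this comparison the Xist term is nearly the same fit as leaving out WT replicate 2. The groups did not overlap for 33 members (44%, beside 44.4%), with treated Tau higher in 10 (13.3%, beside 22.1%) and lower in 23 (30.7%, beside 22.3%).

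**Figure D2:**
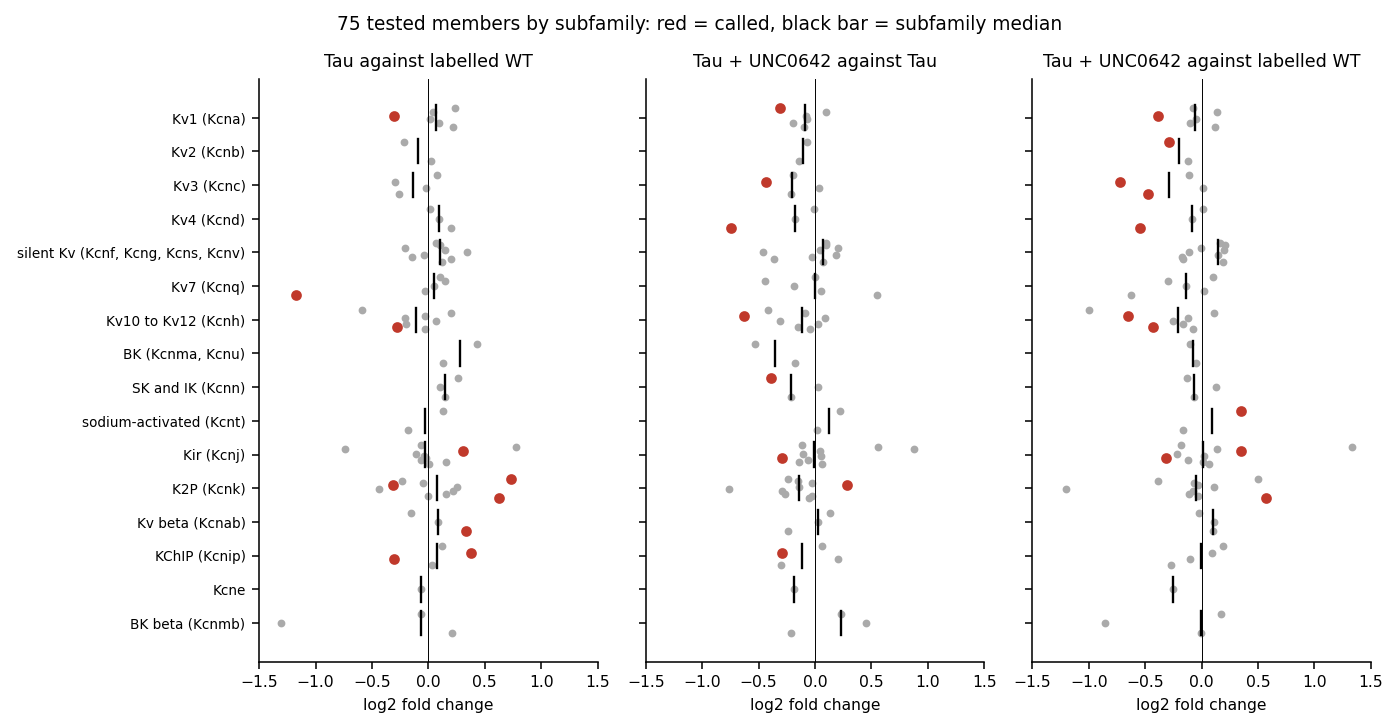
Log2 fold change of each of the 75 tested genes (horizontal axis) by subfamily (vertical axis) in the 3 comparisons, with called genes in red and the subfamily median as a black bar. The red points of the rows of Kv pore genes all lie left of 0 in each panel, the 1 red point of the Kv beta row (Kcnab1) lies right of 0 in the first panel, and the red points of the K2P row lie on both sides in the first panel.

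K2P channels carry the background K+ current of a cell at rest. Kcnk1 (TWIK1), with little current of its own at the cell surface, read 51.6 and 51.3 CPM in the libraries labelled WT, 74.5 and 84.7 in Tau, and 74.7 and 78.2 after UNC0642. All 4 Tau libraries, treated or not, were above both WT libraries, and the treated and untreated pairs overlapped. The gene rose in Tau (log2 fold change 0.63 ± 0.091 SE, edgeR adjusted p = 0.0411) and was also higher in treated Tau than in WT (log2 fold change 0.57 ± 0.091 SE, edgeR adjusted p = 0.0450). Treated against untreated Tau gave -0.056 ± 0.090 SE. Leaving out each library in turn gave 0.54 to 0.72 in Tau against WT, and the adjusted p ran from 1.36e-06 to 0.209 over the alternatives. Without WT replicate 1, whose Prnp lay among the Tau libraries, the difference was 0.63 and rests on 1 WT library. That library and both Tau libraries were all high in Xist. The part of sex in the difference was not tested.

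Kcnk9 (TASK3), an acid-sensitive leak channel gene expressed from the maternal allele in brain, moved the other way. It read 109 and 124 CPM in the libraries labelled WT, 95.7 and 91.4 in Tau, and 115 and 113 after UNC0642. The 2 Tau libraries were the lowest of the 6, and the treated pair lay within the WT range. Kcnk9 fell in Tau (log2 fold change -0.31 ± 0.085 SE, edgeR adjusted p = 0.247) and rose after UNC0642 (log2 fold change 0.29 ± 0.086 SE, edgeR adjusted p = 0.421). The first call was lost without WT replicate 2 (-0.22), and the second without Tau replicate 2 (0.25) or UNC0642 replicate 1 (0.27).

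Kcnk13 (THIK1), known from microglia, read 6.15 and 3.98 CPM in the libraries labelled WT, 6.83 and 10.2 in Tau, and 6.63 and 7.68 after UNC0642. Tau replicate 2 was the highest library and WT replicate 2 the lowest, and the call in Tau (log2 fold change 0.74 ± 0.26 SE, edgeR adjusted p = 0.323) was lost without WT replicate 2 (0.45) or Tau replicate 2 (0.43). Summed microglial markers were 329 and 362 CPM in WT, 399 and 404 in Tau and 376 and 358 after UNC0642, with 10 of 10 markers measured, and were higher in both Tau libraries than in both WT libraries. Their part in the result was not tested. The other 7 K2P genes were not called in Tau against WT, and after UNC0642 9 of the 10 K2P genes had a negative log2 fold change, beside 47 of 75 members and 10284 of 20409 genes, with a median of -0.15 and only Kcnk9 called.

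Kv1 channels sit in axons and at terminals and limit repetitive firing. Kcna4, an A-type subunit that inactivates fast, read 71.4 and 62.6 CPM in the libraries labelled WT, 53.3 and 55.0 in Tau, and 52.5 and 50.3 after UNC0642. Both WT libraries were above all 4 Tau libraries. Kcna4 fell in Tau (log2 fold change -0.31 ± 0.094 SE, edgeR adjusted p = 0.279) and was lower in treated Tau than in WT (log2 fold change -0.38 ± 0.094 SE, edgeR adjusted p = 0.164). The first call was lost without WT replicate 1 (-0.21), and with the Xist term (-0.21). The second kept its call with each library left out (-0.48 to -0.29).

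Kcna6, another Kv1 subunit, had its highest values in untreated Tau, at 115 and 116 CPM (WT), 144 and 128 CPM (Tau) and 106 and 113 CPM (UNC0642). It fell after UNC0642 (log2 fold change -0.31 ± 0.084 SE, edgeR adjusted p = 0.395), a call that was lost without Tau replicate 1 (-0.22) or UNC0642 replicate 1 (-0.27), and with the Xist term (-0.31). In Tau against WT it had an unadjusted p under 0.05 but a fold under 1.2 (log2 fold change 0.23, edgeR adjusted p = 0.325). Kcna1, which pairs with Kcna2 beside the nodes of axons, read 116 and 112 CPM (WT), 131 and 133 CPM (Tau) and 130.5 and 117 CPM (UNC0642) and was likewise under that fold in Tau (log2 fold change 0.21, edgeR adjusted p = 0.346). The median over the 6 Kv1 genes was 0.067 in Tau against WT and -0.087 after UNC0642.

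Kcnab1, the Kv beta subunit that gives Kv1 channels fast inactivation, read 93.0 and 106 CPM in the libraries labelled WT, 116 and 135 in Tau, and 104 and 108 after UNC0642. Tau replicate 2 was the highest and WT replicate 1 the lowest. It rose in Tau (log2 fold change 0.34 ± 0.098 SE, edgeR adjusted p = 0.268), a call lost without WT replicate 1 (0.24) or Tau replicate 2 (0.23), and with the Xist term (0.25). After UNC0642 both libraries lay below both Tau libraries, at a fold under 1.2 (log2 fold change -0.24, edgeR adjusted p = 0.531). Kcnab1 shares 201 exon bases with an antisense gene at 75 to 147 counts.

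Kv3 channels repolarize spikes quickly and serve fast-spiking interneurons above all. Kcnc1 read 113 and 123 CPM in the libraries labelled WT, 105 and 91.9 in Tau, and 90.8 and 79.2 after UNC0642. Both treated libraries lay below all other libraries, and both WT libraries above all others. Kcnc1 was lower in treated Tau than in WT (log2 fold change -0.47 ± 0.099 SE, edgeR adjusted p = 0.105). The call remained with each library left out, at -0.57 to -0.38. In Tau against WT Kcnc1 gave a log2 fold change of -0.26 at an unadjusted p under 0.05, with a fold under the limit of 1.2.

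Summed interneuron markers were 990.2 and 839 CPM in WT, 967 and 981 in Tau and 891 and 886 after UNC0642. Of the 10 markers, all measured, 3 were called up and 0 down in Tau against WT, and 0 up and 2 down after UNC0642. In treated Tau against WT 2 were called up and 1 down. An edgeR adjusted p under 0.05 was found for 1 of the 10, in Tau against WT. Their part in the changes of the channel genes was not tested. In the Kv2 subfamily, Kcnb2 read 106 and 99.7 CPM (WT), 96.7 and 79.9 CPM (Tau) and 85.3 and 83.1 CPM (UNC0642) and was lower in treated Tau than in WT (log2 fold change -0.29 ± 0.099 SE, edgeR adjusted p = 0.292), with the call lost without WT replicate 1 (-0.25), UNC0642 replicate 1 (-0.30) or UNC0642 replicate 2 (-0.27).

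Kv4 channels carry the A-type current of dendrites, and KChIPs bind them and set their surface level. Kcnip3 (also DREAM, a calcium-regulated transcriptional repressor) read 109 and 105 CPM in the libraries labelled WT, 142 and 137 in Tau, and 114 and 114 after UNC0642. The 2 Tau libraries were the highest, with no overlap with either other group. It rose in Tau (log2 fold change 0.38 ± 0.074 SE, edgeR adjusted p = 0.108) and fell after UNC0642 (log2 fold change -0.29 ± 0.074 SE, edgeR adjusted p = 0.372). The rise remained a call with each library left out (0.35 to 0.41), and the fall was lost without Tau replicate 1 (-0.26). The adjusted p of the rise ran from 0.00642 to 0.292 over the alternatives.

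Kcnip2, whose protein drives Kv4 channels to the surface, read 60.8 and 72.9 CPM in the libraries labelled WT, 55.3 and 52.9 in Tau, and 65.8 and 58.8 after UNC0642. Its 2 Tau libraries were the lowest. It fell in Tau (log2 fold change -0.31 ± 0.11 SE, edgeR adjusted p = 0.321), a call lost without WT replicate 2 (-0.17) or Tau replicate 2 (-0.27), so that the 2 KChIP genes called in Tau moved in opposite directions. After UNC0642 its log2 fold change was 0.20 (edgeR adjusted p = 0.622).

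Kcnd1, a Kv4 pore gene on the X chromosome, read 6.70 and 6.05 CPM in the libraries labelled WT, 7.94 and 6.64 in Tau, and 4.20 and 4.499 after UNC0642. Both treated libraries were below the other 4, and WT and Tau overlapped. Kcnd1 fell after UNC0642 (log2 fold change -0.75 ± 0.20 SE, edgeR adjusted p = 0.395), at -0.87 to -0.61 with each library left out, and was lower in treated Tau than in WT (log2 fold change -0.55 ± 0.20 SE, edgeR adjusted p = 0.319), a call lost without WT replicate 1 (-0.48) or UNC0642 replicate 1 (-0.50), and in the DESeq2 Wald test (-0.54). The value after UNC0642 was -0.89 with the Xist term, which rests on the 2 WT libraries, and the sex of the mice and UNC0642 cannot be told apart for this gene. Kcnd2 and Kcnd3, far more abundant than Kcnd1 per kilobase, gave -0.17 and -0.0044 after UNC0642 on the log2 scale.

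**Figure D3:**
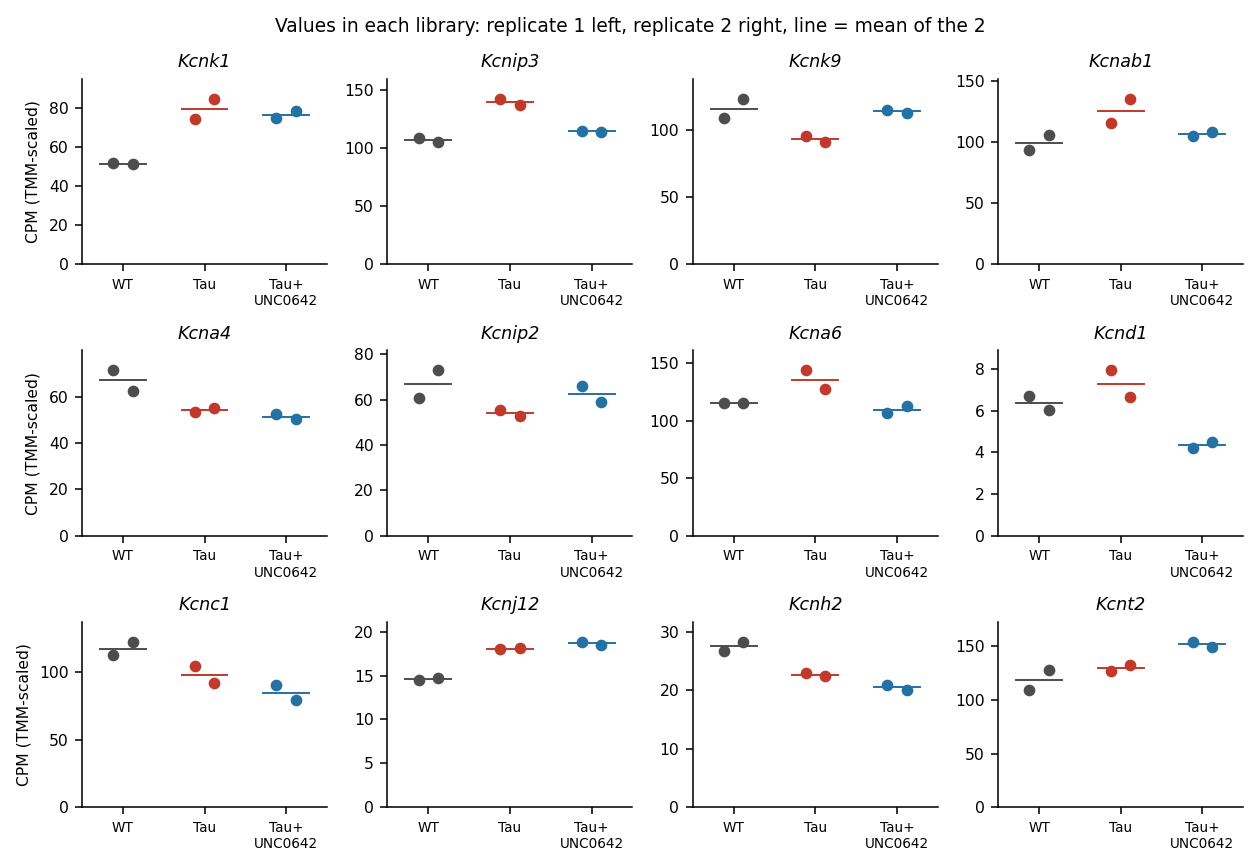
CPM in each library for 12 genes called in at least 1 comparison, with replicate 1 on the left and replicate 2 on the right of each group and a line at the mean of the pair; every vertical axis starts at 0. Kcnk1 is higher in all 4 Tau libraries than in WT, Kcnip3 is highest and Kcnk9 lowest in untreated Tau, and Kcnd1 is lowest in the 2 treated libraries.

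The 100 bases before the start of 4 of these genes are shown as examples of genes that rose (Kcnk1, Kcnip3) or fell (Kcna4, Kcnip2) in Tau. Bases are from RefSeq on GRCm38.p6, written 5′ to 3′ on the strand of the gene, and capitals mark GC boxes (GGGCGG or CCGCCC), CRE half-sites (TGACG or CGTCA) or E-boxes (CACGTG) found on either strand. For Kcnip3, which has several starts, the most upstream start is shown, and the other starts held none of these motifs.
Kcnk1, chr8:125995002-125995101, plus strand: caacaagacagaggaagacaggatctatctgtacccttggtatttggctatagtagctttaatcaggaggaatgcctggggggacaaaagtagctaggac
Kcnip3, chr2:127522095-127522194, minus strand: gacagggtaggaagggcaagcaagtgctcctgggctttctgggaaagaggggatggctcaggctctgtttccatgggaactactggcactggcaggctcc
Kcna4, chr2:107290489-107290588, plus strand: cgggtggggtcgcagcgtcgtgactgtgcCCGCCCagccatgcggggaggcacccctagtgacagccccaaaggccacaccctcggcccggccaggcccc
Kcnip2, chr19:45816064-45816163, minus strand: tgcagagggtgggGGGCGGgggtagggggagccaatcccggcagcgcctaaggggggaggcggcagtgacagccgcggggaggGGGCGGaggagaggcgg
Kcna4 held 1 GC box in this window and Kcnip2 held 2, and Kcnk1 and Kcnip3 held none of the motifs. Of the other genes called in Tau, Kcnab1, which rose, held a GC box before 1 of its 3 starts and an E-box before another, Kcnh2, which fell, held 2 GC boxes, and Kcnj12 and Kcnk13, which rose, held none of the motifs. Kcnk9 and Kcnq1 have no entry. Over the 76 starts of the 53 members found in the table, 35.5% held a GC box, beside 24.7% of all 32851 starts. A CRE half-site was in 6.58% of member starts and 10.5% of all, an E-box in 5.26% and 3.17%, and a full CRE (TGACGTCA) in 0% and 1.15%. The median GC content was 62.0% in member starts and 55.0% in all starts. A match describes the letters and is no evidence of binding.

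Kcnh2 (ERG), known for its slow tail current, read 26.8 and 28.2 CPM in the libraries labelled WT, 22.9 and 22.4 in Tau, and 20.96 and 19.98 after UNC0642. Both WT libraries were above all 4 Tau libraries. It fell in Tau (log2 fold change -0.28 ± 0.11 SE, edgeR adjusted p = 0.348), a call lost without WT replicate 2 (-0.24), Tau replicate 1 (-0.30) or Tau replicate 2 (-0.26), and in the DESeq2 Wald test (-0.28). It was also lower in treated Tau than in WT (log2 fold change -0.43 ± 0.11 SE, edgeR adjusted p = 0.171), at -0.47 to -0.39 with each library left out. Kcnh6, another ERG gene at a low level, read 4.14 and 3.75 CPM (WT), 3.90 and 3.84 CPM (Tau) and 2.25 and 2.73 CPM (UNC0642). Its treated pair was below the other 4 libraries, and it was called down after UNC0642 (log2 fold change -0.63 ± 0.26 SE, edgeR adjusted p = 0.525) and against WT (log2 fold change -0.65 ± 0.25 SE, edgeR adjusted p = 0.346). The first of these was lost without Tau replicate 1 (-0.61), Tau replicate 2 (-0.64) or UNC0642 replicate 1 (-0.50), and in the DESeq2 Wald test (-0.62) and with the Xist term (-0.77). The second was lost without WT replicate 1 (-0.58) or UNC0642 replicate 1 (-0.53), and in the DESeq2 Wald test (-0.65).

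Over the 8 Kcnh genes the median log2 fold change was -0.11 in Tau, -0.12 after UNC0642 and -0.21 in treated Tau against WT, where 7 of the 8 were negative (beside 47 of 75 members and 10612 of 20409 genes) and 2 were called. With the Xist term the median after UNC0642 was 0.037. Kcnq1, the cardiac and epithelial Kv7 gene, was at a low level with 1.54 and 1.21 CPM (WT), 0.679 and 0.515 CPM (Tau) and 0.651 and 1.10 CPM (UNC0642), and was called down in Tau (log2 fold change -1.17 ± 0.46 SE, edgeR adjusted p = 0.361). That call was lost without WT replicate 1 (-0.995), Tau replicate 1 (-1.41) or Tau replicate 2 (-1.01), and in the DESeq2 Wald test (-1.19) and with the Xist term (-0.99). Kcnq1 shares 121 exon bases with the antisense gene Kcnq1ot1, which had 3815 to 6793 counts per library, and the strand setting of the counting is not given in the sources used here, so its value is uncertain. The M-current genes Kcnq3 and Kcnq5 gave 0.050 and 0.10 in Tau on the log2 scale, with no call.

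Kcnt2 (sodium-activated) read 109 and 128 CPM in the libraries labelled WT, 127 and 133 in Tau, and 154 and 149 after UNC0642. Both treated libraries were above the other 4. It was higher in treated Tau than in WT (log2 fold change 0.35 ± 0.088 SE, edgeR adjusted p = 0.168), a call lost without WT replicate 1 (0.24), and against untreated Tau the fold was under 1.2 (log2 fold change 0.22, edgeR adjusted p = 0.517). Its paralog Kcnt1 gave -0.16 against WT. Kcnn3, an SK gene, read 18.0 and 22.0 CPM (WT), 25.5 and 22.2 CPM (Tau) and 15.4 and 21.04 CPM (UNC0642) and fell after UNC0642 (log2 fold change -0.39 ± 0.17 SE, edgeR adjusted p = 0.548). The call was lost without Tau replicate 1 (-0.28) or UNC0642 replicate 1 (-0.19), and with the Xist term (-0.095). Kcnma1 gave 0.13 in Tau and -0.17 after UNC0642, neither called.

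Inward rectifiers hold the potential near rest. Kcnj12 (strong rectifier) read 14.5 and 14.8 CPM in the libraries labelled WT, 18.0 and 18.1 in Tau, and 18.8 and 18.5 after UNC0642. All 4 Tau libraries were above both WT libraries. It rose in Tau (log2 fold change 0.30 ± 0.12 SE, edgeR adjusted p = 0.350) and was higher in treated Tau than in WT (log2 fold change 0.35 ± 0.12 SE, edgeR adjusted p = 0.277). The first call was lost without WT replicate 1 (0.29), Tau replicate 1 (0.31) or Tau replicate 2 (0.31), and with no filter on low counts (0.30), in the DESeq2 Wald test (0.30) and with the Xist term (0.29). The second was lost without UNC0642 replicate 1 (0.34). Kcnj6 (GIRK2, which couples GABA-B receptors to K+ current) read 50.5 and 65.9 CPM (WT), 58.9 and 56.0 CPM (Tau) and 49.4 and 44.4 CPM (UNC0642).

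WT replicate 2 was the highest library for Kcnj6 and UNC0642 replicate 2 the lowest. It was called down after UNC0642 (log2 fold change -0.29 ± 0.13 SE, edgeR adjusted p = 0.549) and against WT (log2 fold change -0.31 ± 0.13 SE, edgeR adjusted p = 0.364). The first call was lost without Tau replicate 1 (-0.26), Tau replicate 2 (-0.33) or UNC0642 replicate 2 (-0.22), and with the replicate block (-0.29) and with the Xist term (0.090), where it turned positive. The second was lost without WT replicate 2 (-0.11) or UNC0642 replicate 2 (-0.24), and with the Xist term (-0.11). The other GIRK genes of cortex, Kcnj3 and Kcnj9, gave -0.14 and 0.052 after UNC0642 and were not called. Of the 10 Kir genes tested, 8 were not called in treated Tau against WT.

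The 2 genes that the choice of members leaves out are glial and vascular. Kcnj10, the main Kir gene of astrocytes, read 77.7 and 82.4 CPM (WT), 93.5 and 104 CPM (Tau) and 73.1 and 74.0 CPM (UNC0642) and was called up in Tau (log2 fold change 0.30, edgeR adjusted p = 0.259) and down after UNC0642 (log2 fold change -0.42, edgeR adjusted p = 0.255). Kcnj8, of pericytes, read 3.08 and 2.27 CPM (WT), 3.15 and 2.69 CPM (Tau) and 4.26 and 4.23 CPM (UNC0642) and was called up in treated Tau against WT (log2 fold change 0.67, edgeR adjusted p = 0.362).

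The sums over all 76 members were 6108 and 6708 CPM in WT, 6912 and 6355 in Tau and 6459 and 6209 after UNC0642. WT replicate 2 and Tau replicate 1 were the highest, as they were for the excitatory neuron markers, and the groups overlapped. Their part in the changes of single genes was not tested. For the 37 Kv pore genes the sums were 3769 and 4182 CPM in WT, 4287 and 3832 in Tau and 3957 and 3751 after UNC0642, with the same 2 libraries highest. The 11 auxiliary genes gave 741 and 770.5 CPM in WT, 821 and 829 in Tau and 798 and 799 after UNC0642, with all 4 Tau libraries above both WT libraries. On this scale the sum over all genes tested had that order too. It was 965360 and 985460 CPM in WT, 1034900 and 1011800 in Tau and 1005700 and 998310 after UNC0642. In Tau against WT 6 of the 11 auxiliary genes had a positive log2 fold change and 5 a negative one, with a median of 0.031. The 9 silent Kv genes, which modify Kv2 channels, gave 424 and 476 CPM in WT, 496 and 439 in Tau and 489.6 and 497 after UNC0642, and 0 of the 9 were called in any comparison. With 2 libraries against 2, an exact permutation test of such a sum cannot give a p below 0.333.

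Genes outside the Kcn names that work with these channels are given by list. Of all genes, 9.81% were called in Tau against WT, 7.69% after UNC0642 and 9.47% in treated Tau against WT. The lists are short, and no result about them as sets is drawn. Of 17 Kv partners, such as Dpp6 and Dpp10, which speed Kv4 channels, and Lgi1 and its receptors, 1 was called in each of the first 2 comparisons. That gene, Cntn2, a cell adhesion molecule that places Kv1 channels beside nodes, read 107 and 97.3 CPM (WT), 113 and 133 CPM (Tau) and 89.8 and 88.7 CPM (UNC0642), up in Tau (log2 fold change 0.27, edgeR adjusted p = 0.324) and down after UNC0642 (log2 fold change -0.46, edgeR adjusted p = 0.255). Its highest library, Tau replicate 2, was also that of the oligodendrocyte markers, 5 of 12 of which were called up in Tau and 3 of 12 down after UNC0642. Their part in the result was not tested.

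Of 4 BK gamma subunits 3 were tested and Lrrc52 had no count. Lrrc38 was called up in Tau, with 1.42 and 1.64 CPM in the libraries labelled WT, 2.68 and 2.40 in Tau, and 2.01 and 1.4997 after UNC0642. Lrrc55 was called down in treated Tau against WT, with 23.2 and 14.6 CPM in the libraries labelled WT, 11.9 and 15.8 in Tau, and 11.96 and 12.5 after UNC0642. Its highest value was that of WT replicate 1. The KATP receptor Abcc9, also a pericyte marker, read 8.83 and 8.32 CPM (WT), 12.2 and 11.6 CPM (Tau) and 9.18 and 8.07 CPM (UNC0642) and was called up in Tau and down after UNC0642, and Abcc8 was not called. Of 3 calmodulin genes, the sensors of SK and Kv7 channels, Calm2 was called up in treated Tau against WT, with 1162 and 1248 CPM in the libraries labelled WT, 1382 and 1490.2 in Tau, and 1512 and 1459.5 after UNC0642. Of 9 GABA-B receptor and GIRK regulator genes, Kctd12 was called down in Tau, with 22.8 and 23.6 CPM in the libraries labelled WT, 18.1 and 18.1 in Tau, and 21.7 and 17.3 after UNC0642, and 0 of 9 were called after UNC0642. None of the genes in these partner lists had an edgeR adjusted p under 0.05 in any comparison. Fits with a library left out are not reported for them.

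In all, 29 calls were made over the 3 comparisons, and 8 of them held with each of the 6 libraries left out and in all 7 other fits tried. Among these were Kcnk1 in both comparisons with WT, Kcnip3 in Tau against WT, Kcnd1 after UNC0642, and Kcna4, Kcnc1 and Kcnh2 in treated Tau against WT. A call held where the unadjusted p was under 0.05 and the fold at least 1.2. Of the genes named, Kcnk1 alone had an edgeR adjusted p under 0.05 with all 6 libraries. The fits overlap, since some leave out a library of the group not compared. A term for Xist, which splits the libraries as UNC0642 splits the Tau mice, left 19 of the 29 calls. That term rests on the WT pair, and in both comparisons with WT it nearly repeats the leaving out of a WT library.

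**Figure D4:**
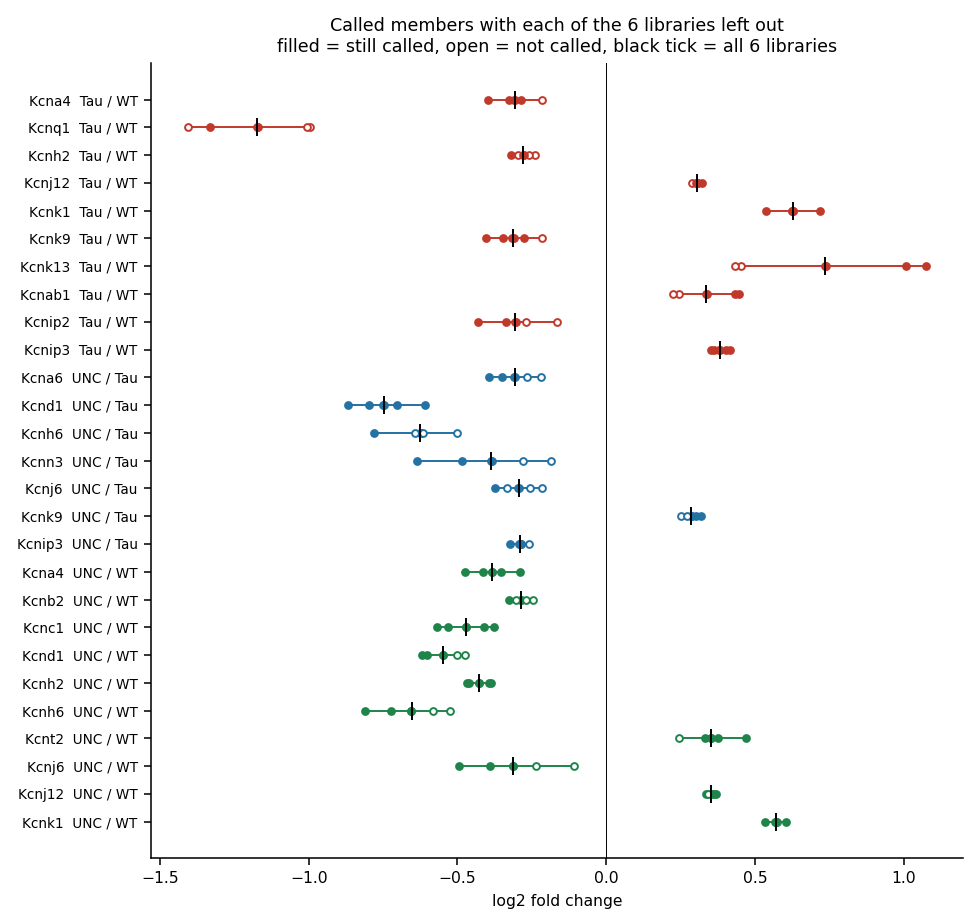
Log2 fold change of called genes (horizontal axis) in Tau against WT (red), treated against untreated Tau (blue) and treated Tau against WT (green), with 1 point per library left out, filled where the call remained, and a black tick for all 6 libraries. Kcnk1 in red and green, Kcnip3 in red, Kcnd1 in blue and Kcna4, Kcnc1 and Kcnh2 in green have filled points throughout, and Kcnk13 and Kcnq1 spread widely.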

How the data were processed

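RNA of the PFC was sequenced in 6 libraries. The authors made strand-specific libraries, trimmed reads with Cutadapt, aligned them with TopHat2 (build mm10 in the submitters' processing notes) and counted genes with featureCounts; the deposited values are raw counts per gene, and the strand setting is not given in the sources used here. Of the low counts (1 to 20) in a library 63.8% to 67.1% were even numbers, and whether both mates of a read pair were counted is not given in the sources used here. A spreadsheet date stood in place of 26 symbols in the files of 2 libraries, and those rows, which hold no member, were matched by row order. Members and gene lists were chosen with earlier results of these data known.

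Counts were fitted with edgeR 4.0.16 (limma 3.58.1, R 4.3.3): filterByExpr (minimum count 10, total 15), which left 20409 genes, TMM factors of 0.966 to 1.04, and the quasi-likelihood test with a mean per group over all 6 libraries, no covariate and 3 residual degrees of freedom. A call needs p under 0.05 and a fold of at least 1.2, the threshold of the study. Adjusted p-values are Benjamini-Hochberg over all genes, SE is the coefficient divided by the root of F, and p-values measure the spread between 2 libraries a group. CPM per kb uses exon lengths of GENCODE M21 (GRCm38), where the exons of 26 members overlap another gene. A floor of 3 counts is 0.104 to 0.176 CPM, for counting error only. Alternatives were DESeq2 1.42.0, its size factors, other filters, fits of the 2 groups alone, a replicate block, a term for Xist, other thresholds and leaving out each library. The fit was tested on simulated data with 3-fold changes. These are larger than the changes of the members called, so how well folds near 1.2 are found was not tested. Members given in every library are those called in any comparison, the highest in CPM of each subfamily, the 3 smallest p-values per direction and comparison, and those on the X chromosome; Kcna1 was added after its values were seen. Some members named by this rule are counted in the totals but not reported singly here. Tables and figures used Python 3.11.15, pandas 2.3.3, numpy 2.4.6 and matplotlib 3.10.9.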

Additional observations from a re-analysis of the deposited data

How the results depend on the processing

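With adjusted edgeR p under 0.05 the calls were 1 up and 0 down in Tau against WT, 0 up and 0 down after UNC0642, 1 up and 0 down in treated Tau against WT. With a fold of at least 1.5 they were 2 up and 1 down in Tau against WT, 0 up and 2 down after UNC0642, 0 up and 2 down in treated Tau against WT. Without a fold limit 3 members were up after UNC0642. The DESeq2 Wald test called 3 down in Tau, and no filter on low counts gave 5 up in treated Tau against WT. The Xist term gave 8 up after UNC0642 and 7 up in treated Tau against WT, with medians of 0.0043 and 0.027, and Kcnj6 after UNC0642 reversed to 0.090. Leaving out 1 library gave 4 to 7 up and 2 to 9 down in Tau (median -0.018 to 0.094), 0 to 2 and 2 to 10 after UNC0642 (-0.13 to -0.030), and 2 to 7 and 6 to 9 in treated Tau against WT (-0.10 to 0.028). The 9 members called down in Tau came without Tau replicate 1 and the 2 without Tau replicate 2. The median in Tau turned negative without Tau replicate 1, without WT replicate 1 and with the Xist term, and the median in treated Tau against WT turned positive without WT replicate 2 and with that term. In each case the Xist term and the leaving out of that WT library are nearly the same fit. The cause of these changes was not tested. The remaining library of a group is then assumed to vary like the other groups. DESeq2 size factors, the filter of at least 10 counts in 2 libraries and the fits of the 2 compared groups kept all 6 counts within 1.5 times. The replicate block gave 5 up and 6 down in Tau against WT, 1 up and 6 down after UNC0642, 3 up and 8 down in treated Tau against WT, with medians of 0.036, -0.076 and -0.073, and lost 1 of 29 calls (Kcnj6 after UNC0642). Deviations of libraries with the same number correlated at -0.034, -0.021 and -0.0033 over 20409 genes. No pairing by number was seen over all genes, and with 2 libraries a group this check is weak. With 2 libraries a group, a biological coefficient of variation of 12.3% limits what can be called, and members below 1 CPM rest on few counts.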
